A study of Mus musculus with 6 samples.

Results

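The genes described here are 10 imprinted genes that lie outside the large imprinted clusters of the mouse genome, most of them expressed from the paternal allele: Plagl1, Nnat, Impact, Zrsr1, Zdbf2, Rasgrf1, Slc38a4, Sfmbt2, Inpp5f and Gnas. Their probe sets were chosen by name: every probe set that the platform annotation assigns to exactly 1 gene was kept where that gene was one of the 10. This gave 23 of the 45101 probe sets on the array, for 9 of the 10 genes, and Zrsr1 was not analysed here. Of these 23, 14 probe sets of 8 genes reached a log2 intensity of 4 (an intensity of 16) on at least 3 of the 6 arrays and were tested, among 20841 tested in all. The other 9 did not reach it on any array.

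The arrays compare 2 genotypes of mouse embryonic stem cells, 3 arrays each, made from total RNA. Wild-type cells are E14K, and the other group is Gsk-3a-/-; Gsk-3b-/- (called DKO), which lacks both glycogen synthase kinase-3 genes. All cells were kept without feeders on gelatin, in serum medium with leukaemia inhibitory factor. The labels do not say how many clones the DKO cells represent or whether replicates were separate cultures, so p-values measure no more than how these samples vary, possibly for technical reasons, and differences between cell lines cannot be told apart from those due to the genotype.

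In genomic imprinting, a DNA methylation mark set in the egg or the sperm at a control region governs which parental allele of a gene is transcribed in the offspring. At most of the loci above the mark is placed in the egg and the paternal copy is transcribed. Rasgrf1 belongs to the few loci marked in sperm, and the marked allele is not the silent one at every locus. Gnas is a special case, with several promoters that differ in parental origin. The series concerns the bearing of PI3K signalling, through Gsk-3, on methylation at such loci. The arrays measure the RNA of both alleles together and not methylation, so neither allele use nor the control regions could be checked against the genes' common name here.

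Of the 8 genes tested, Plagl1 and Nnat passed between the genotypes (limma, adjusted p under 0.05), in opposite directions. The call on the brightest Plagl1 probe set was lost whenever 1 array was left out. The 250 bases before the RefSeq transcription start of Plagl1 and Nnat (GRCm38.p6, plus strand for both) are shown because these are the genes the results turn on. Capitals mark CpG dinucleotides, the sites of DNA methylation. The Plagl1 window is chr10:13090582-13090831 and the Nnat window chr2:157559828-157560077.
Plagl1: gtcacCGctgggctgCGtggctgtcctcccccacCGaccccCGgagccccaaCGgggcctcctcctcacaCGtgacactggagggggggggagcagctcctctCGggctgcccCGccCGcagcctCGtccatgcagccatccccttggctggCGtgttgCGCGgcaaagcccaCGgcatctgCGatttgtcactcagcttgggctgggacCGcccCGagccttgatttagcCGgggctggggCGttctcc
Nnat: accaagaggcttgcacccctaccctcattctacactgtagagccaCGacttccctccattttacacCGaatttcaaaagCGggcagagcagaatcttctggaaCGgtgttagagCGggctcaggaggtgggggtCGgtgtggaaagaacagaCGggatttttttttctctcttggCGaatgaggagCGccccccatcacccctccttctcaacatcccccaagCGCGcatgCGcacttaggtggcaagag
The Plagl1 window held 19 CpG and the Nnat window 12, against a median of 6 in the 32841 windows of the same length in the RefSeq table. Fewer CpG were counted in 80.3% of all windows than before Plagl1, and in 66.5% than before Nnat. Over the 16 windows of 9 of the genes, the count ran from 3 (Slc38a4) to 29 (Gnas). The hexamer TGCCGC, the core of the motif bound by the imprint-protecting protein Zfp57, was searched on both strands and occurred in 2 of the 16 windows, once before Plagl1 and 3 times before 1 start of Zdbf2. It occurred in 8.68% of all windows. The Tcf/Lef-type motifs CTTTGAT (3.21% of all windows) and CTTTGAA (4.45%) occurred in 0 of the 16 on either strand. These counts describe letters in short windows and show no binding.

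The arrays themselves differed, and the part of these differences in the values of the imprinted genes was not tested. Spike-in control probe sets had a mean log2 signal of 9.50 and 9.91 on the replicate 3 arrays and of 1.73 to 1.85 on the other 4. The ratio of signal at the 3' end to the 5' end of 3 control transcripts, on the log2 scale, was 2.20 ± 0.32 in DKO cells and 1.98 ± 0.33 in wild-type cells (SD, n = 3). By array, this ratio was lowest on replicate 3 (1.83 in DKO, 1.64 in wild-type) and ran from 2.00 to 2.44 on the others. The targeted genes were read first. Gsk3a was at log2 intensities of 7.18, 7.08 and 6.04 on the DKO arrays and 8.65, 7.89 and 7.90 on the wild-type arrays, a difference of -1.38 that did not pass (limma, adjusted p = 0.0942; 0.00646 with the replicate block, that is, with the replicate number as a term of the fit). Gsk3b had 5 tested probe sets, with differences of -0.71 to -0.02, of which 0 passed by limma and 0 had an unadjusted p under 0.05. Where these probe sets lie relative to the deleted parts is not known here, so they do not settle the labels. All 10 stem cell markers (Pou5f1, Sox2, Nanog and others) were detected; 0 of them passed by limma, 0 had an unadjusted p under 0.05, and their summed intensity was 26411 to 28754 on DKO and 27532 to 29154 on wild-type arrays. Of the marker lists of other cells, 0 of 4 tested fibroblast, 0 of 8 endoderm and 0 of 4 trophoblast genes passed by limma (1, 3 and 2 at an unadjusted p under 0.05). These genes were read on the brightest probe set, and 1 of 3 tested probe sets of the trophoblast gene Tfap2c passed. With the replicate block 1 fibroblast gene rose (Col6a1, adjusted p = 0.0469) and 1 fell (Col1a1, adjusted p = 0.00506), 1 trophoblast gene rose (Eomes, 0.00734), and 0 endoderm genes passed. Of 3 tested mesoderm genes 1, Myl7, rose (difference 2.62, limma adjusted p = 0.0112, and 0.1 without DKO replicate 1). Over all tested genes 1.64% rose and 2.5% fell by limma, and 1123 of 10496 passed with the block. Beside these shares, counts from lists this small say little.

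Among all tested probe sets, 3.24% passed an adjusted p of 0.05 (1.31% higher in DKO, 1.93% lower), and 9.57% did with the replicate block. Among the imprinted genes' probe sets, 4 of 14 passed, namely all 3 of Plagl1 (higher) and the only one of Nnat (lower). By gene, read on the brightest probe set, 2 of 8 passed, against 4.13% of 10496 genes (1.64% higher, 2.5% lower). In 4 of 14 probe sets, the same ones, every DKO array lay on one side of every wild-type array, against 16.7% of all tested probe sets. Both counts include Plagl1 1450533_a_at, which was tested only because its DKO arrays, the higher group, reached the filter. The 3 Plagl1 probe sets read 1 gene, so the 4 are not separate results. The median log2 difference was -0.06 over the 8 genes and -0.0025 over all tested genes. In RNA from whole cultures, fewer cells that express a gene and less RNA per cell cannot be told apart.

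**Figure D1:**
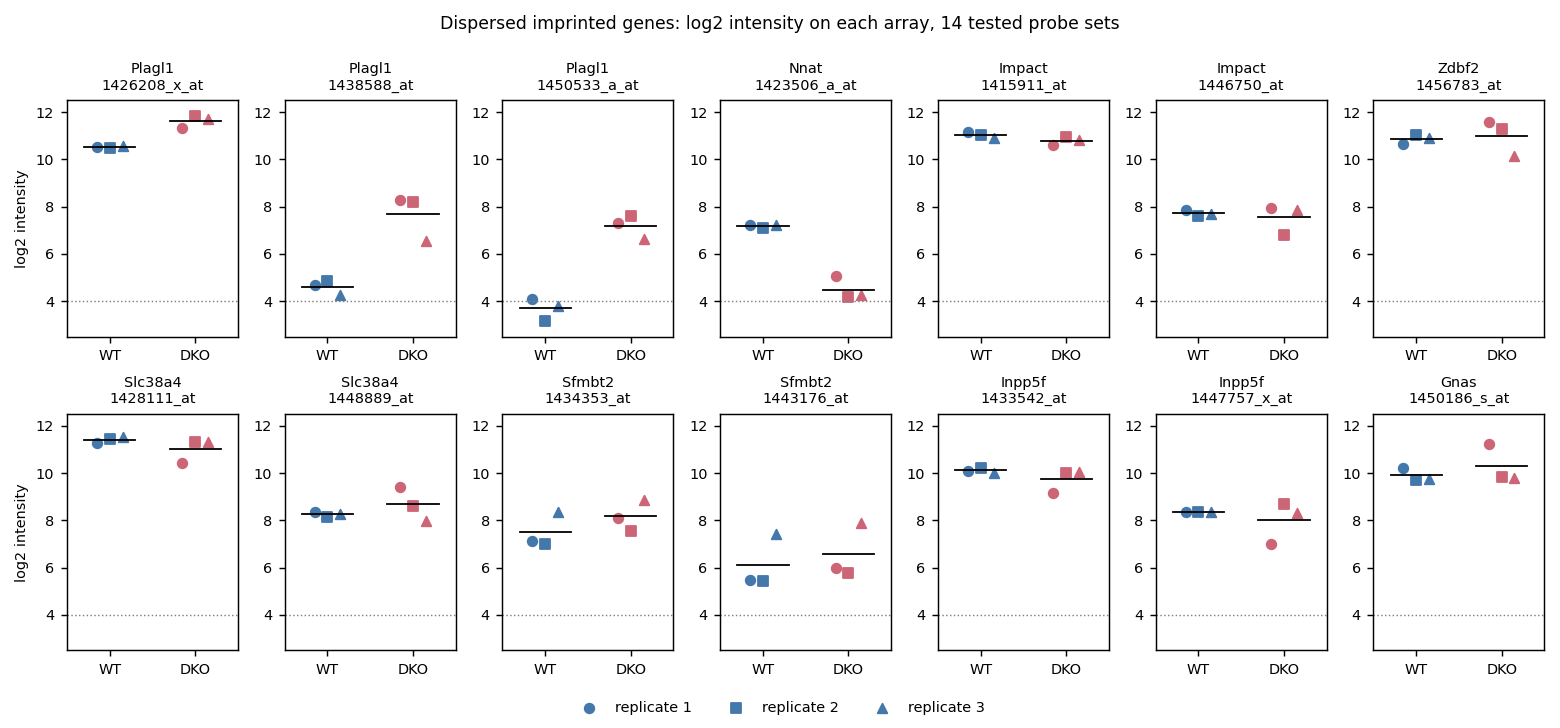
Log2 intensity (y axis, the same range in every panel) of the 14 tested probe sets on each of the 6 arrays, wild-type (WT) in blue and DKO in red; symbols give the replicate number, black lines the mean of 3 arrays and the dotted line the detection limit of 4. The genotypes separate for the 3 Plagl1 panels and for Nnat, and the wild-type symbols lie closer together than the DKO symbols in most panels.

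Plagl1 (also known as Zac1) encodes a zinc-finger transcription factor that can halt the cell cycle and that acts on other imprinted genes. Its transcript was higher on every DKO array and on every probe set. On the brightest probe set (1426208_x_at) intensities were 2606, 3641 and 3392 in DKO cells and 1481, 1449 and 1520 in wild-type cells. The wild-type arrays were nearly identical here, and the lowest DKO array stood well above them. That gave log2 means of 11.64 ± 0.25 and 10.53 ± 0.03 (SD, n = 3) and a difference of 1.10 (SE 0.23), or 2.1-fold (limma, adjusted p = 0.0405).

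The other Plagl1 probe sets showed a low wild-type signal and a larger rise. Probe set 1438588_at read 307, 297 and 92 in DKO against 26, 29 and 19 in wild-type cells, a log2 difference of 3.06 (SE 0.45), or 8.37-fold (adjusted p = 0.00716). For 1450533_a_at the intensities were 159, 197 and 98 in DKO cells and 17, 9 and 14 in wild-type cells, of which the last 2 lie under the detection limit. In both, the replicate 3 array was the lowest of the DKO arrays, yet it still exceeded every wild-type array. The fitted difference of 1450533_a_at was 3.49 (SE 0.34, adjusted p = 0.000885), and 3.15 with the dim wild-type arrays set to the limit. With log2(value + 16), which damps low values, the differences were 2.46 and 2.47. In the order of fitted rises over all tested probe sets 1438588_at ranked 48 and the brightest 558; no rank is given for 1450533_a_at, whose wild-type level is mostly under the limit.

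The 3 probe sets therefore agree in direction but not in size. The 95% interval of the brightest (0.57 to 1.63) does not reach those of the others (2.04 to 4.09 and 2.72 to 4.27). The suffix _x in the name of the brightest marks a probe set some of whose probes also match other sequences, and whether this touches its wild-type signal was not tested. Its call was also the least stable. With 1 array left out at a time it passed in 0 of 6 fits (adjusted p = 0.0505 to 0.169) and not with replicates 1 and 2 alone (0.168). Probe set 1438588_at was lost without DKO replicate 1 (0.0752), and 1450533_a_at passed in all 6 (highest 0.0201). The latter was tested only because its DKO arrays reached the filter.

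Sfmbt2, a Polycomb-related protein with MBT domains that is needed in the placenta, varied with the replicate number, and DKO was the higher array of each same-numbered pair. Its brighter probe set (1434353_at) read 275, 189 and 464 in DKO cells and 139, 129 and 328 in wild-type cells. Replicate 3 was the highest array in both genotypes, by 1.03 log2 units over the mean of the others in DKO cells and by 1.29 in wild-type cells. Between same-numbered arrays DKO was higher by 0.98, 0.55 and 0.50 (by 0.51, 0.36 and 0.47 on the dimmer probe set). The mean difference of 0.68 (95% interval -0.31 to 1.67) did not pass (adjusted p = 0.631, and 0.0813 with the replicate block). The dimmer one (1443176_at) read 64, 55 and 238 in DKO cells and 45, 43 and 172 in wild-type cells, with a difference of 0.44 (adjusted p = 0.884; 0.231 with the block), and replicate 3 stood 2.00 and 1.97 above the others. A rise of more than 1 log2 unit on replicate 3 in both genotypes occurred in 428 of 20841 tested probe sets (2.05%), both Sfmbt2 probe sets among them. These are the arrays with bright spike-in signal and the lowest 3' to 5' ratio, and the part of those differences in the Sfmbt2 values was not tested.

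Zdbf2, a zinc-finger protein gene with a role in postnatal growth, had a single probe set, 1456783_at. It read 3038, 2460 and 1127 in DKO cells and 1606, 2108 and 1907 in wild-type cells. The DKO arrays enclosed the wild-type range, with replicates 1 and 2 above it and replicate 3 below. The difference was 0.13 (95% interval -0.71 to 0.96, adjusted p = 0.95), and it turned to -0.16 without DKO replicate 1 and -0.0091 without DKO replicate 2.

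Nnat (neuronatin) encodes a small proteolipid of the endoplasmic reticulum membrane, best known from the developing brain. It fell in DKO cells. Its probe set (1423506_a_at) read 33, 18 and 19 in DKO cells and 150, 135 and 151 in wild-type cells. The wild-type arrays agreed closely, and all DKO arrays were near the detection limit of 16 but not under it. Log2 means were 4.49 ± 0.48 and 7.18 ± 0.09 (SD, n = 3), a difference of -2.69 (SE 0.29, 95% interval -3.34 to -2.05), or 6.47-fold lower (adjusted p = 0.00138). With log2(value + 16) it was -2.06 (adjusted p = 0.00171). It passed whichever of the 6 arrays was left out (adjusted p = 0.00293 to 0.011). In the order of falls over all tested probe sets it ranked 63.

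Since Nnat is a neural gene, the neural marker list was read beside it. Of its 12 genes 8 were tested, 2 fell (Pax6, from 7.46 ± 0.29 to 3.99 ± 0.58, adjusted p = 0.000826; Neurod1, from 6.11 ± 0.61 to 4.01 ± 0.60, adjusted p = 0.0228) and 6 did not pass. Pax6 is a transcription factor of neural progenitors and Neurod1 one of differentiating neurons; Neurod1 did not pass without DKO replicate 1, DKO replicate 2 or WT replicate 2 (highest adjusted p = 0.113). The 2 falls stand beside 2.5% of all tested genes that fell. The median difference of the 8 was -1.06 (all tested genes -0.0025), and 5 had an unadjusted p under 0.05 by limma. With the replicate block 5 fell and 1, Nefl, rose, where 1123 of the 10496 tested genes passed in either direction. In the main fit Nefl did not pass on its brightest probe set, but 1 of its 2 tested probe sets did. The summed intensity of the 8 genes ran from 3793 to 5764 in DKO cells and from 3419 to 3590 in wild-type cells. That sum mostly reflects Stmn2 and Nefl, the brightest of the 8 and the only ones with a positive difference (0.28 and 1.29). Dcx, Snap25, Syp and Elavl4 did not reach the filter on enough arrays to be tested. The part of neural cells in the Nnat value was not tested.

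Slc38a4, a sodium-coupled transporter of amino acids in liver and placenta, gave readings of opposite sign. The brighter probe set (1428111_at) was at 1383, 2544 and 2581 in DKO cells and 2504, 2750 and 2958 in wild-type cells. Its low value came from DKO replicate 1, and the genotypes overlapped, with a difference of -0.39 (95% interval -1.06 to 0.28, adjusted p = 0.705). The dimmer one (1448889_at) was at 676, 396 and 255 in DKO cells and 328, 284 and 313 in wild-type cells, a difference of 0.41 (95% interval -0.38 to 1.20, adjusted p = 0.752). Here DKO replicate 1 was the highest array, so the array that was low on one probe set was high on the other. Which transcript each detects is not known here.

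Gnas encodes the alpha subunit of the G protein that activates adenylyl cyclase. Only 1 of its 5 probe sets was above the detection limit. That one, 1450186_s_at, read 2404, 923 and 899 in DKO cells and 1194, 849 and 865 in wild-type cells. Replicate 1 was the highest array in both genotypes, by 1.40 (DKO) and 0.48 (wild-type) log2 units over the mean of the others, and the remaining 4 arrays lay within 849 to 923. The difference of 0.40 (95% interval -0.49 to 1.28) did not pass (adjusted p = 0.803) and became -0.071 without DKO replicate 1. The other 4 probe sets stayed at intensities of 2 to 13, and which of the locus's transcripts each detects is not known here.

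Rasgrf1, an exchange factor that loads Ras with GTP in neurons, had 3 probe sets, all between intensities of 2 and 8 on every array. With both genotypes under the detection limit no difference is given. Inpp5f (Sac2) is a phosphatase of phosphoinositides, lipids of the kind that PI3K makes. Its brightest probe set (1433542_at) read 580, 1032 and 1056 in DKO cells and 1107, 1186 and 1036 in wild-type cells, and a dimmer one (1447757_x_at) read 128, 410 and 320 against 330, 332 and 325. On both, DKO replicate 1 was the lowest array, while the other DKO arrays overlapped the wild-type range on the first probe set and lay on both sides of it on the second. The differences were -0.37 (95% interval -1.02 to 0.28, adjusted p = 0.716) and -0.36 (-1.27 to 0.55, adjusted p = 0.828). The latter was 0.14 without DKO replicate 1. The remaining probe set stayed at 8 to 10.

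Impact encodes an inhibitor of Gcn2, the kinase that slows translation when amino acids are scarce. On probe set 1415911_at it read 1543, 1963 and 1794 in DKO cells and 2265, 2110 and 1932 in wild-type cells. The ranges overlapped only narrowly, by DKO replicate 2 and wild-type replicate 3. A difference of -0.26 (95% interval -0.77 to 0.26) did not pass (adjusted p = 0.77). Its second tested probe set (1446750_at) was at 247, 112 and 234 against 234, 196 and 209, where DKO replicate 2 alone was low (difference -0.19, adjusted p = 0.904). The third stayed at 5 to 8.

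Over the 10 probe sets that did not pass, differences ran from -0.39 to 0.68, with 95% limits from -1.27 to 1.94, and 0 had an unadjusted p under 0.05 by limma. With the replicate block, adjusted p ran from 0.0813 to 0.864. These intervals leave room for changes of about the size seen on the brightest Plagl1 probe set in some of these genes.

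**Figure D2:**
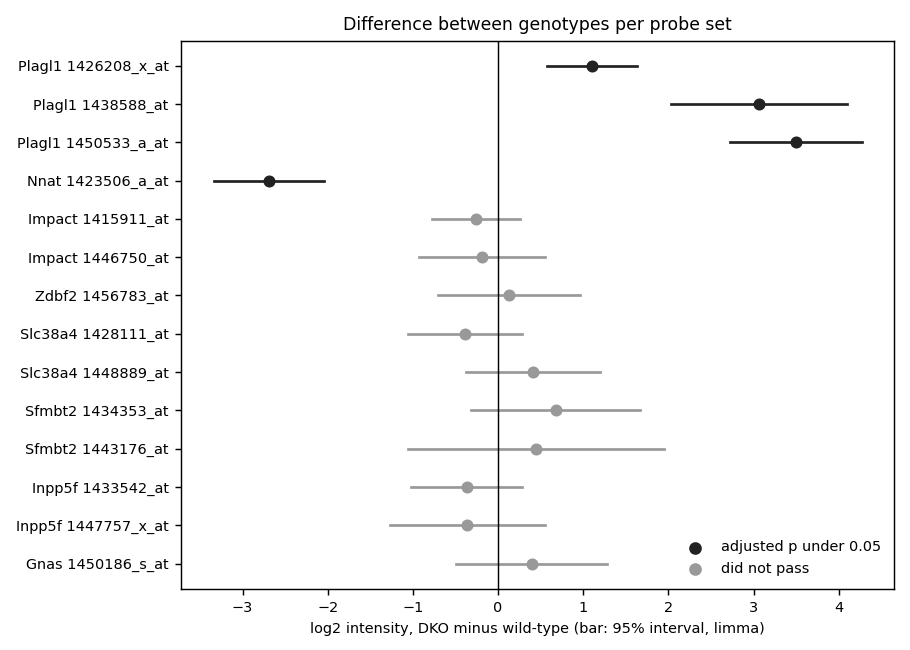
Log2 intensity in DKO minus wild-type cells (x axis) for each tested probe set, with the 95% interval from limma; black marks an adjusted p under 0.05 and grey one above it. The Plagl1 points lie at 1.10 to 3.49, Nnat lies at -2.69, and the grey intervals all include 0.

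Neighbouring genes were read to see whether a difference extended along the chromosome. For the 8 tested genes, the nearest tested gene on each side in the RefSeq order was taken. Of these 16 neighbours 0 passed by limma, also with the replicate block, 1 had an unadjusted p under 0.05, and their differences ran from -0.58 to 0.82. A count of 0 among 16 is near the 4.13% of all tested genes that passed (1123 of 10496 with the block). The neighbour with the unadjusted p under 0.05, Npepl1 next to Gnas, had a 95% interval that excluded 0 before adjustment (0.04 to 1.60). Beside Plagl1, Sf3b5 differed by 0.31 and Ltv1, a ribosome assembly factor, by -0.06. The Sf3b5 interval (-0.42 to 1.05) overlaps that of the brightest Plagl1 probe set (0.57 to 1.63). Blcap, whose transcription unit contains Nnat within an intron, read 8.60 ± 0.11 in DKO cells and 8.28 ± 0.35 in wild-type cells (difference 0.32, 95% interval -0.26 to 0.90, adjusted p = 0.73). Its interval lies wholly above that of Nnat. Adam23, beside Zdbf2, differed by -0.43, and Slc38a2, a relative of Slc38a4 and its neighbour, by -0.58 (adjusted p = 0.661 and 0.439). Of the 5 genes that host or overlap small imprinted genes (Blcap, Commd1, H13, Herc3, Trappc9), 0 passed by limma and 0 had an unadjusted p under 0.05. Commd1, which hosts Zrsr1, differed by -0.03 (95% interval -0.71 to 0.64).

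**Figure D3:**
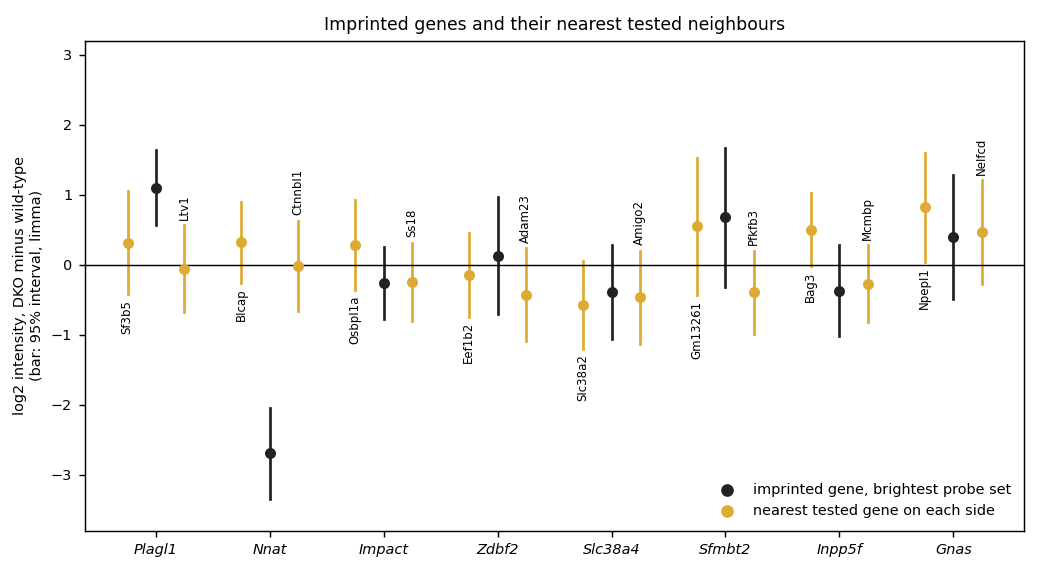
Log2 intensity in DKO minus wild-type cells (y axis) for the brightest probe set of each tested imprinted gene (black) and for the nearest tested gene on each side (yellow, named), with 95% intervals from limma. The black points of Plagl1 (1.10) and Nnat (-2.69) lie outside the range of their neighbours' points, -0.06 to 0.32. The Nnat interval is also apart from those of its neighbours, but the Plagl1 interval overlaps that of Sf3b5.

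The list of factors that keep imprints, from the zinc-finger protein Zfp57 and its partner Trim28 to the DNA methyltransferases, had 25 of 27 genes tested. Read on the brightest probe set, 0 rose, 1 fell and 24 did not pass, with a median difference of -0.17. That count is near the 4.13% of all tested genes that passed. Tet1 did not pass on its brightest probe set (difference -0.80, adjusted p = 0.361 by limma), but 1 of its 4 tested probe sets did. The fall was that of Dnmt3a, which methylates DNA de novo (difference -1.67 on the brightest of 5 probe sets, of which 2 passed; adjusted p = 0.0142; not passed without DKO replicate 1 or WT replicate 2, highest 0.0709). With the replicate block Dppa3 fell too, where 1123 of the 10496 tested genes passed in either direction. Zfp57 itself read 11.12 ± 0.08 in DKO cells and 10.90 ± 0.30 in wild-type cells (difference 0.21, adjusted p = 0.836).

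A second list holds the imprinted genes described as a network around Plagl1. Falls were called in 4 of its 10 tested genes and rises in 0, against 4.13% of all genes called, and the median was -0.89 (all genes -0.0025). The list was written with earlier results of these data known, so these counts are a description only. Cdkn1c and Igf2, both known as genes that Plagl1 can activate, were among the falls while Plagl1 rose. Cdkn1c, an inhibitor of the cell cycle, was under the detection limit on all DKO arrays, at least 3.26-fold lower (adjusted p = 0.00211). It was tested only because its wild-type arrays reached the limit. Igf2, a fetal growth factor, read 6.69, 5.58 and 5.61 against 8.92, 7.38 and 8.06 on the log2 scale (difference -2.16, adjusted p = 0.0324). Every DKO array of Igf2 lay below every wild-type array, but leaving out an array ended the call each time except for WT replicate 2 (highest 0.137). Peg3 and Grb10 also fell, with log2 differences of -1.81 and -1.83 (limma, adjusted p = 0.00705 and 0.00798). Meg3 did not pass on its brightest probe set, but 1 of its 7 tested probe sets did. With the replicate block 5 fell, Mest being the addition, and Dlk1 and Sgce rose. These stand beside 1123 of the 10496 tested genes that passed with the block in either direction.

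The lists of relatives and partners are small, and their counts stand beside 4.13% of all tested genes that passed. Of 21 tested relatives that are not imprinted (Plagl2, Sfmbt1, the Slc38 and G protein alpha families and others) 0 rose or fell by limma, with a median of -0.03, and the count was also 0 with the replicate block (1 at an unadjusted p under 0.05). Plagl2, the closest relative of Plagl1 tested, differed by 0.23 (adjusted p = 0.804). In the Gs-alpha and cyclic AMP list 16 of 18 did not pass. Adcy2, an adenylyl cyclase, rose (difference 1.37, adjusted p = 0.0389), and Prkar2b, a regulatory subunit of protein kinase A, fell (difference -1.69, adjusted p = 0.0422). Leaving out 1 array ended most of these calls. Adcy2 passed then only without DKO replicate 3 (highest 0.139) and Prkar2b only without WT replicate 1 or WT replicate 3 (highest 0.195). With the block, 3 of this list fell, Pde3b and Pde4d in addition, where 1123 of the 10496 tested genes passed in either direction. Among 9 genes of Ras activation 1 fell, Rasgrp2, another Ras exchange factor (difference -2.54, adjusted p = 0.00483; 0.0505 without DKO replicate 1). Of 14 genes of the Gcn2 pathway, on which Impact acts, 0 passed by limma, also with the block, and 1 had an unadjusted p under 0.05. A further list of 6 tested genes reported as imprinted in small domains, some only in other species or tissues, had 1 fall: Rb1, a cell cycle repressor imprinted in human and not known as imprinted in mouse (difference -1.48, adjusted p = 0.0127; not passed without DKO replicate 1, DKO replicate 2 or WT replicate 2, highest 0.0709). Nap1l5, an imprinted retrogene, passed only with the block (difference 1.19, adjusted p = 0.118; 0.0344 with the block).

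**Figure D4:**
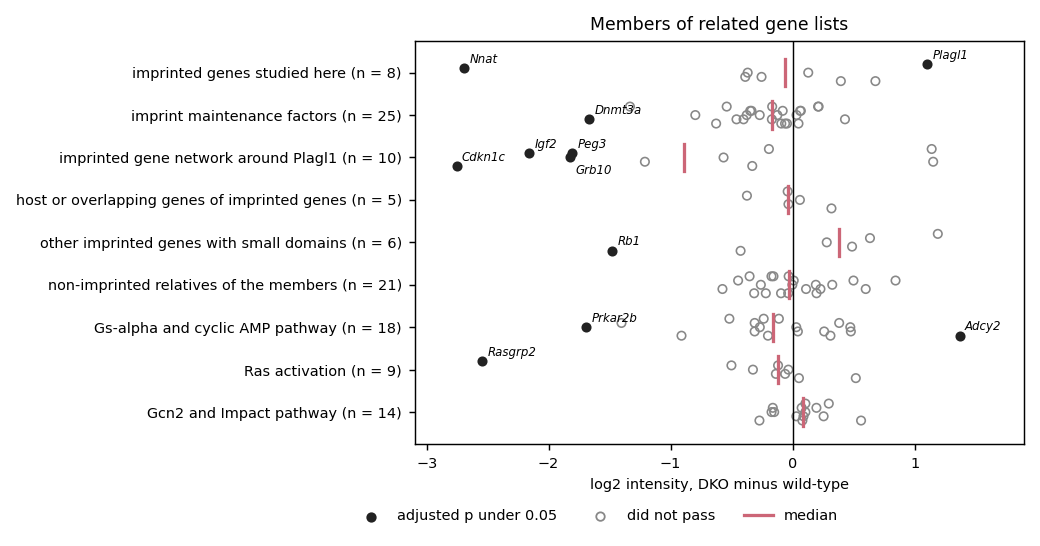
Log2 intensity in DKO minus wild-type cells (x axis) for every tested gene of 8 related lists and for the imprinted genes themselves (top), 1 point a gene; filled points passed an adjusted p of 0.05 and are named, and red bars are medians. Most lists centre near 0, and the network around Plagl1 has a median of -0.89 with 4 named falls.

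The genes whose profile over the 6 arrays was closest to Plagl1 and to Nnat were found by the root mean square distance between log2 values, each centred on its own wild-type mean. This is a description and was not tested. Genes chosen this way have a like difference by construction, so their directions and calls are no separate result. Values under the detection limit entered the distance as measured. For the brightest Plagl1 probe set these were Rxra, a retinoid X receptor (distance 0.14 log2 units), Tuft1 (0.16) and Grik3, a glutamate receptor subunit (0.17), with differences of 1.04, 0.98 and 1.08 that did not pass (adjusted p = 0.0842, 0.0636 and 0.0842). For Nnat they were Esrp1, a splicing regulator of epithelial cells (0.29), Cdkn1c (0.30) and Zfp608 (0.31), which all fell. Esrp1 read 6.87 ± 0.60 in DKO cells and 9.63 ± 0.49 in wild-type cells (adjusted p = 0.004). Zfp608 was under the detection limit on all DKO arrays, at least 2.00-fold lower. Like Cdkn1c, it was tested only because its wild-type arrays reached the limit.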

How the data were processed

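Total RNA of 2 genotypes of mouse embryonic stem cells was hybridised to 6 Affymetrix arrays, 3 per genotype, assigned by sample title. The deposited values are intensities, 1 whole number per probe set and array. The authors' scale, centring and normalization are not given in the sources used here. Tools named with no role, per the submitters' processing notes, are limma 2.16.5, R 2.8.0, GCRMA 2.14.1 and GCOS. They run in whole numbers from 1 to 12861 and so were read as a linear scale; log2 was computed with no pseudocount. Array medians were intensities of 10 or 11, where rounding is coarse, and precision is limited by the number of arrays.

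Names of probe sets came from the platform annotation, with symbols updated by gene identifier through the RefSeq table (34754 of 34958 single-gene probe sets matched; 932 had several genes and 9211 none). Those with a log2 value of at least 4 on at least 3 arrays, array controls left out, entered a two-sided limma fit (version 3.58.1, R 4.3.3, lmFit then eBayes), with Benjamini-Hochberg adjustment over all 20841 and a threshold of 0.05. Genes were read on their brightest tested probe set. Where all arrays of a genotype lie under 4, a fold is a lower limit, against the mean of the higher of 4 and the measured value. Named are all probe sets of the 10 genes, Gsk3a and Gsk3b, the nearest tested neighbours and host genes. Also named are the members of the fixed lists that passed and the 3 closest profiles of each gene that passed. Picked out from lists or neighbours after their values were seen were Npepl1, Sf3b5, Ltv1, Zfp57, Plagl2, Dppa3, Col1a1, Col6a1 and Eomes. So were Mest, Dlk1, Sgce, Nefl, Pde3b, Pde4d, Nap1l5, Tet1, Meg3 and Tfap2c. The genes, lists and alternatives were chosen with earlier results of these data known.

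No 2 arrays were alike: at most 1.79% of tested probe sets had the same value on any pair. For arrays that share a number, correlations of the deviations from the genotype mean over tested probe sets were 0.427, 0.354 and 0.595. Each lies above the values for unlike numbers, which ran from -0.488 to 0.113. The replicate numbers of the titles were taken to pair the samples, but what a number stands for is not stated. The main fit had genotype alone and ignored this pairing, which entered only with the replicate block. Promoter windows on chromosome 18 were left out. Alternatives were the replicate block, replicate 3 as a term, replicates 1 and 2 alone, other filters, log2(value + 16), quantile normalization, eBayes with trend and robust settings, the mean of a gene's probe sets, and each array left out. The procedure was tested on simulated data with independent arrays and no effect of the replicate number, so that test does not cover the pairing seen here.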

Additional observations from a re-analysis of the deposited data

How the results depend on the processing

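The calls on the imprinted genes' probe sets were the same with the replicate number as a block (4 passing), with replicate 3 as a term, with the stricter filter, with log2(value + 16), with quantile normalization and with the trend and robust settings, and no direction of the 14 differences turned under these. The size of the low-level differences did change: with log2(value + 16) Nnat went from -2.69 to -2.06 and the dimmer Plagl1 probe sets from 3.06 to 2.46 and from 3.49 to 2.47. Without a filter 2 probe sets and 1 gene passed, with 45037 probe sets tested, and with replicates 1 and 2 alone 1 gene passed. Leaving out 1 array gave 2 to 3 probe sets and 1 gene in every case, because the brightest Plagl1 probe set lost its call each time. Directions turned only in genes that had not passed: the second Impact probe set (-0.39 to 0.18, turned without DKO replicate 2), Zdbf2 (-0.16 to 0.55, turned without DKO replicate 1 and, at -0.0091, DKO replicate 2), the dimmer Sfmbt2 probe set (-0.22 to 1.10, without DKO replicate 3), the dimmer Inpp5f probe set (-0.70 to 0.14) and Gnas (-0.071 to 0.64), the last 2 without DKO replicate 1. Over all features, the main counts of 675 probe sets and 434 genes became 1995 and 1123 with the replicate block, 1117 and 687 with replicate 3 as a term, and 373 and 253 with the stricter filter. With replicates 1 and 2 alone 440 probe sets passed, and without a filter 247 genes. Leaving out 1 array gave 290 to 604 probe sets and 184 to 374 genes, lowest without DKO replicate 1; without DKO replicate 2 and WT replicate 2 the probe sets numbered 381 and 319. The cause of these changes was not tested. Signal near the detection limit bounds what can be said of Rasgrf1, 4 Gnas probe sets and the DKO level of Nnat. The block changed no call of the 14 probe sets.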

Other observations

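The imprinted genes varied more among the DKO arrays than among the wild-type arrays, a pattern seen only after the values were read and given here as a description with no test. The SD over 3 arrays was larger in DKO in 13 of the 14 tested probe sets (92.9%), the exception being the brighter one of Sfmbt2. Over all tested probe sets it was larger in DKO in 58.4%. The median SD of the imprinted genes' probe sets was 0.64 (DKO) and 0.12 (wild-type) log2 units, against 0.35 and 0.29 over all tested probe sets. Among probe sets with a mean log2 intensity of at least 6, the shares were 11 of 12 and 64.1%. Probe sets of a gene share their RNA, so the 14 stand for 8 genes.

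The deviating DKO array was not the same for each gene. A probe set was counted where 1 array lay more than 1 log2 unit from the mean of the other 2 of its genotype. DKO replicate 1 did so for 3 of the 14 (Gnas and 1 probe set of Slc38a4 up, 1 of Inpp5f down), as for 8.01% of all tested probe sets. DKO replicate 3 did so for 5 (9.61% of all) and DKO replicate 2 for 3 (4.19%). On the wild-type arrays the counts were 0, 1 and 2 for replicates 1, 2 and 3, all of them Sfmbt2 (7.34%, 3.71% and 7.97% of all). In DKO replicate 3, Zdbf2 and a probe set each of Plagl1 and Slc38a4 were low, by 1.28, 1.71 and 1.02 log2 units, and both Sfmbt2 probe sets were high.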
